A study of Homo sapiens with 6 samples.

Results

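The genes described here are CCL3, CCL3L3 and CCL4, which encode secreted CC chemokines. They were chosen by their names, with their values in this comparison known, and make up 3 of the 1630 genes in the deposited table. RNA came from U87MG, an established human glioblastoma line, in 2 groups of 3 libraries. The shControl group carried a control short hairpin RNA (genotype NC), and the shCREPT group carried a hairpin against CREPT (genotype CREPT Knockdown). CREPT is the product of RPRD1B and binds the tail of RNA polymerase II. The labels do not say whether the libraries came from separate cultures, how many hairpin sequences were used or whether cells were cloned, so spreads below are spreads between libraries and may be technical. Immune signalling in glioblastoma is 1 theme of the series title, and chemokines are among its messengers. The targeted gene, RPRD1B, was not analysed here for want of a row, and the knockdown was not checked.

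Each value is a normalized expression value on the authors' scale, with 2 decimals. The table lists genes past a threshold of the authors, with an absolute log2 fold change of at least 1.0009 and an adjusted p of at most 0.0497, so a missing row says nothing about expression. The listed values of a library summed to between 31893.69 and 33330.8, which covers the listed genes alone. Depth is unknown. Whether values are divided by gene length is not stated. Among genes at 0 in at least 1 library, those with a value above 0 (105 to 121 genes a library) had lower values where exons were longer, with Spearman's rho of −0.486 to −0.367 across genes, against 0.021 to 0.061 over all 1549 genes with a known length. The values are read below as values per length, and levels are compared between genes on that reading.

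CCL3 and CCL4 are also called macrophage inflammatory proteins. They are small proteins that leave the cell, are held by proteoglycans, and draw monocytes, T cells and natural killer cells through G protein-coupled receptors. Activated macrophages, microglia, T cells and natural killer cells are their best known sources, where NF-kappaB and other inducible factors switch them on. CCL3L3 and CCL4L2 are copies of CCL3 and CCL4 that arose by duplication, and the number of such copies differs between people. How many copies U87MG carries was not analysed here.

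The 4 genes stand in pairs on chromosome 17 (GRCh38, GENCODE v29). CCL3 (ENSG00000277632) lies on the minus strand at chr17:36088256-36090169, and CCL4 (ENSG00000275302) on the plus strand at chr17:36103590-36105621. Their starts are 13421 bases apart and point away from each other. CCL3L3 (ENSG00000276085, named CCL3L1 in GENCODE v29) lies on the minus strand at chr17:36194869-36196758, and CCL4L2 (ENSG00000276070) on the plus strand at chr17:36210924-36212878, with starts 14166 bases apart in the same arrangement. CCL4L2 also has a row, is not one of the 3 genes, and is given beside them throughout. An antisense gene overlaps CCL3 and another overlaps CCL3L3. Neither has a row. Whether counting used strand is not stated in the labels.

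How far a read can tell the copies apart bears on each value below, so the coding sequences of CCL3 and CCL3L3 are shown first, from 1 GENCODE v29 coding transcript a gene, 5′ to 3′ and without the stop codon. Capitals mark bases that differ between the 2 genes or that 1 of them lacks. Each is made of 3 coding exons.
CCL3: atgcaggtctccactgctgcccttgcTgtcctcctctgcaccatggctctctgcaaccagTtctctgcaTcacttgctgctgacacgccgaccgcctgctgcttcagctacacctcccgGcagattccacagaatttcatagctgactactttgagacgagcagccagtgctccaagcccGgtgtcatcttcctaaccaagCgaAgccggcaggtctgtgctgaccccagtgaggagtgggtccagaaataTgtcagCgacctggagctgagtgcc
CCL3L3: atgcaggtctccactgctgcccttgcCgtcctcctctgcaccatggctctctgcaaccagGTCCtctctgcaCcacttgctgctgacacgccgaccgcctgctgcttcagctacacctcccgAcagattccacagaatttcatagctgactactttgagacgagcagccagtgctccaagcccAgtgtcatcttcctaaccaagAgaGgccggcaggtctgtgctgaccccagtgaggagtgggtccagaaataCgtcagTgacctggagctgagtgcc
The coding sequences of CCL3 (276 bases) and CCL3L3 (279 bases) were identical in 267 of 279 aligned positions (95.7%), with 9 mismatches and 3 positions present in CCL3L3 alone. CCL4 and CCL4L2 differed at 7 of 276 positions (97.5% identity). Between the families, CCL3 and CCL4 shared 67.3% of aligned coding positions.

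The capitals are spread along the whole of each sequence, and their spacing sets how long a read must be. Of the 50-base windows of the spliced CCL3 transcript, 72 of 729 (9.88%) also occur in a transcript of another gene, which was CCL3L3 in each case. Of its 679 windows of 100 bases, 0 do. The same held for CCL3L3, with 72 of 735 windows of 50 bases and 0 of 685 windows of 100 bases. CCL4 shared 182 of 855 windows of 50 bases (21.3%) and 45 of 805 windows of 100 bases (5.59%) with CCL4L2, and 0 of 755 windows of 150 bases. These counts are over the GENCODE v29 primary assembly and exact matches. Neither read length nor the treatment of reads with several matches is stated in the labels, so how the authors divided reads between copies was not tested.

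CCL3, an attractant of monocytes and T cells, had values of 0.31, 0.3 and 0.11 in shControl and 26.81, 24.56 and 25.57 in shCREPT. Every shCREPT library was far above every shControl library, and the shCREPT libraries lay close together, with an SD of 4.39% of their mean. The means were 0.24 ± 0.113 and 25.6 ± 1.13 (SD, n = 3), a ratio of 107. The lowest shCREPT value was 79.2 times the highest shControl value.

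CCL3L3, whose product differs little from that of CCL3, had values of 0.62, 0.24 and 0 in shControl and 54.97, 59.61 and 54.2 in shCREPT. It was the highest of the 4 genes in each shCREPT library, and it was listed at 0 in shControl library 3. The means were 0.287 ± 0.313 and 56.3 ± 2.93 (SD, n = 3), and the lowest shCREPT value was 87.4 times the highest shControl value. Among the 1630 listed genes, CCL3L3 went from place 1251, 1438 and 1586 by level in the shControl libraries to place 118, 102 and 115 in the shCREPT libraries.

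CCL4, which also attracts T cells and natural killer cells, had values of 0.27, 0.16 and 0 in shControl and 1.78, 1.84 and 3.25 in shCREPT. The groups did not overlap, but the level stayed low and shCREPT library 3 stood above the other shCREPT libraries. The means were 0.143 ± 0.136 and 2.29 ± 0.832 (SD, n = 3), and the lowest shCREPT value was 6.59 times the highest shControl value. Its copy CCL4L2 was listed at 0 in all 3 shControl libraries and at 2.98, 1.6 and 5.01 in shCREPT. CCL4L2 was also highest in shCREPT library 3, where CCL3L3 had its lowest shCREPT value, and a mean of 3.20 ± 1.71 (SD, n = 3) describes a wide spread.

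**Figure D1:**
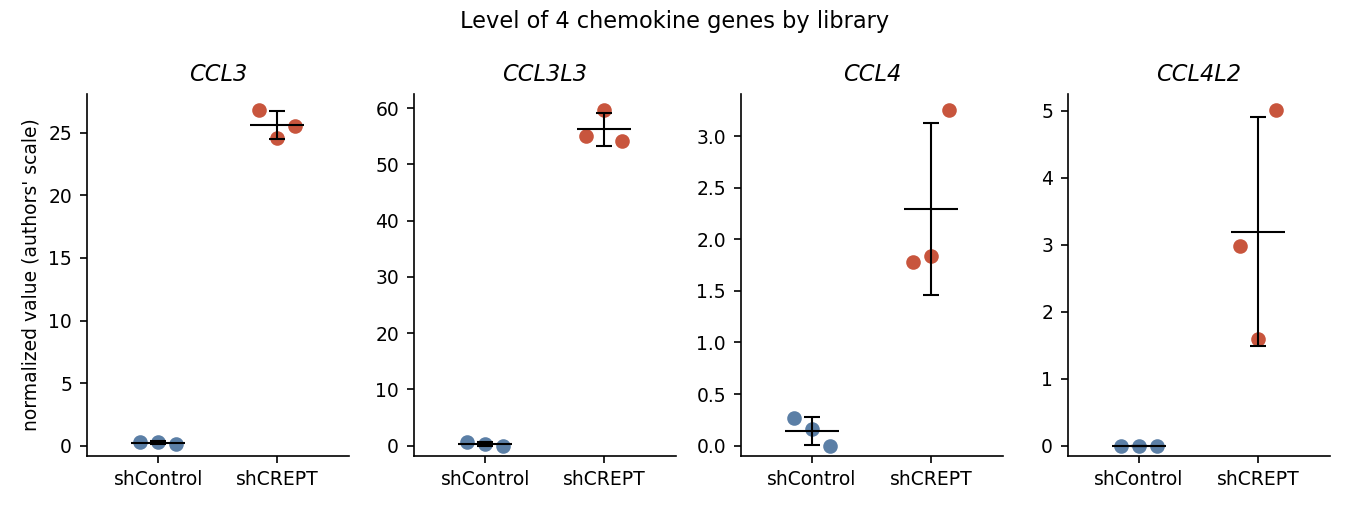
Normalized value of CCL3, CCL3L3, CCL4 and CCL4L2 in each of 3 shControl (blue) and 3 shCREPT (red) libraries; each panel has its own scale, points are libraries, and black bars are the mean and SD. CCL3 and CCL3L3 sit between 24.56 and 59.61 in shCREPT, whereas CCL4 and CCL4L2 sit between 1.6 and 5.01.

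In shCREPT cells the order of levels was thus CCL3L3, then CCL3, then CCL4L2 and CCL4. CCL3L3 was 2.05, 2.43 and 2.12 times CCL3 in the 3 libraries (2.20 ± 0.201, SD, n = 3), so these neighbours did not overlap. CCL3 was 15.1, 13.3 and 7.87 times CCL4. CCL4L2 and CCL4 overlapped, with ratios of 1.67, 0.870 and 1.54, and are not separated by these libraries. In shControl the ranges of CCL3 (0.11 to 0.31), CCL3L3 (0 to 0.62) and CCL4 (0 to 0.27) overlapped and gave no order. The exons of CCL3 and CCL3L3 cover 1494 and 1469 bases, so their ratio depends little on whether values are per length. Those of CCL4 and CCL4L2 cover 2032 and 1397 bases.

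As shares of the summed signal of CCL3, CCL3L3 and CCL4, the shCREPT libraries were alike. The sum was 83.56, 86.01 and 83.02 (84.2 ± 1.59, SD, n = 3). CCL3L3 made up 65.8%, 69.3% and 65.3% of it (66.8% ± 2.19, SD, n = 3). CCL3 made up 32.1%, 28.6% and 30.8% (30.5% ± 1.79), and CCL4 made up 2.13%, 2.14% and 3.92% (2.73% ± 1.03). CCL3 and CCL3L3 together therefore carried nearly the whole of this sum in each shCREPT library. The sum leaves out CCL4L2, which made up 3.44%, 1.83% and 5.69% of a sum that includes it.

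In shControl the sum was 1.2, 0.7 and 0.11, and the shares rest on very small values. CCL3 made up 25.8%, 42.9% and 100% of it, CCL3L3 made up 51.7%, 34.3% and 0%, and CCL4 made up 22.5%, 22.9% and 0%. The share of CCL3L3 did not overlap between groups, since its highest shControl value, 51.7%, lay below its lowest shCREPT value, 65.3%. The share of CCL4 was higher in shControl libraries 1 and 2 than in any shCREPT library, and was 0% in library 3, so the groups overlapped. The shares of CCL3 also overlapped between groups. The mean shares in shControl were 56.2% ± 38.9 for CCL3, 28.6% ± 26.3 for CCL3L3 and 15.1% ± 13.1 for CCL4 (SD, n = 3). These differences in makeup are a description with no test, and the shControl shares depended on single libraries. Without library 3 the mean share was 34.4% for CCL3, 43.0% for CCL3L3 and 22.7% for CCL4, and without library 1 it was 17.1% for CCL3L3.

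**Figure D2:**
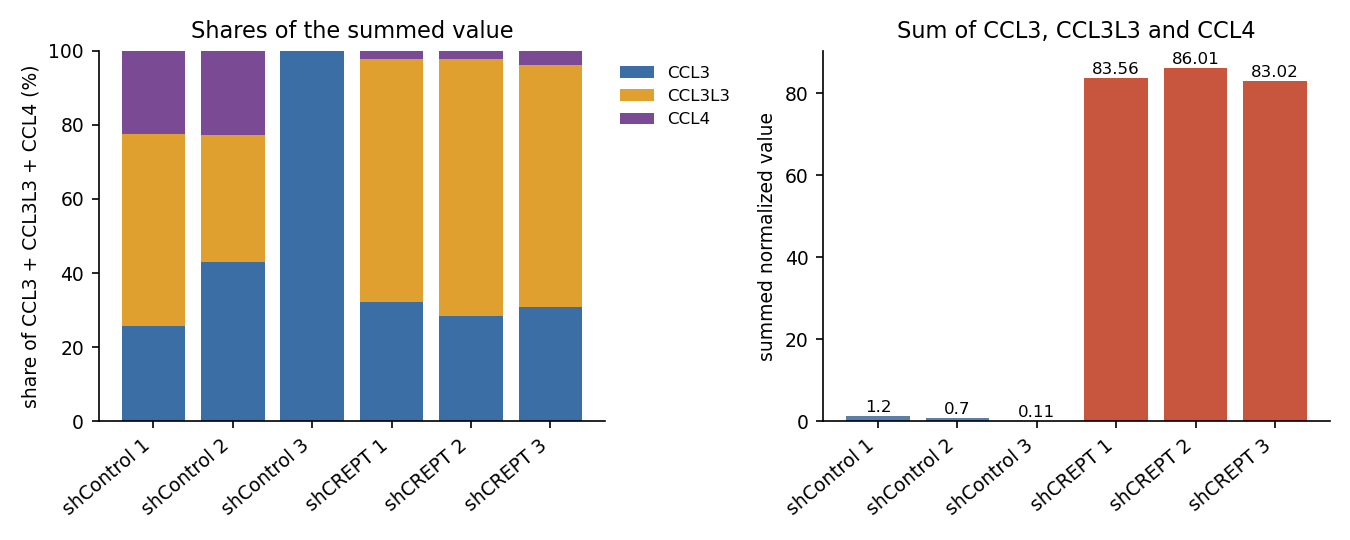
Left, percent of the summed value of CCL3, CCL3L3 and CCL4 taken by each gene in each library; right, the sum itself on the authors' scale, blue for shControl and red for shCREPT. The 3 shCREPT libraries repeat 1 makeup with sums of 83.02 to 86.01, and the shControl shares vary on sums of 0.11 to 1.2.

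In a limma fit on log2(value + 1) over the whole table, the change was 5.50 ± 0.18 (SE) for CCL3L3, 4.43 ± 0.10 for CCL3 and 1.50 ± 0.19 for CCL4, and 1.99 ± 0.28 for CCL4L2. This scale shortens changes of low genes. In the authors' deposited table the log2 fold changes are 7.62 for CCL3L3, 7.48 for CCL4L2, 6.67 for CCL3 and 4.01 for CCL4, at places 2, 3, 7 and 45 of all listed genes. CCL4L2 was at 0 in every shControl library, so its fold change rests on a treatment of 0 that is not stated. By the limma change the places were 1 for CCL3L3, 2 for CCL3, 32 for CCL4L2 and 93 for CCL4. All 3 genes passed the filter on low values (at least 1 in at least 3 libraries) through their shCREPT values alone, so they had to differ. They are given here as a description, with no test. Of the 1184 genes tested, 97.9% had an adjusted p under 0.05 (40.6% with a higher and 57.3% with a lower shCREPT level), the median change was −0.76, and in 96.8% the groups did not overlap. Each listed gene had been selected by the authors for this same contrast.

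**Figure D3:**
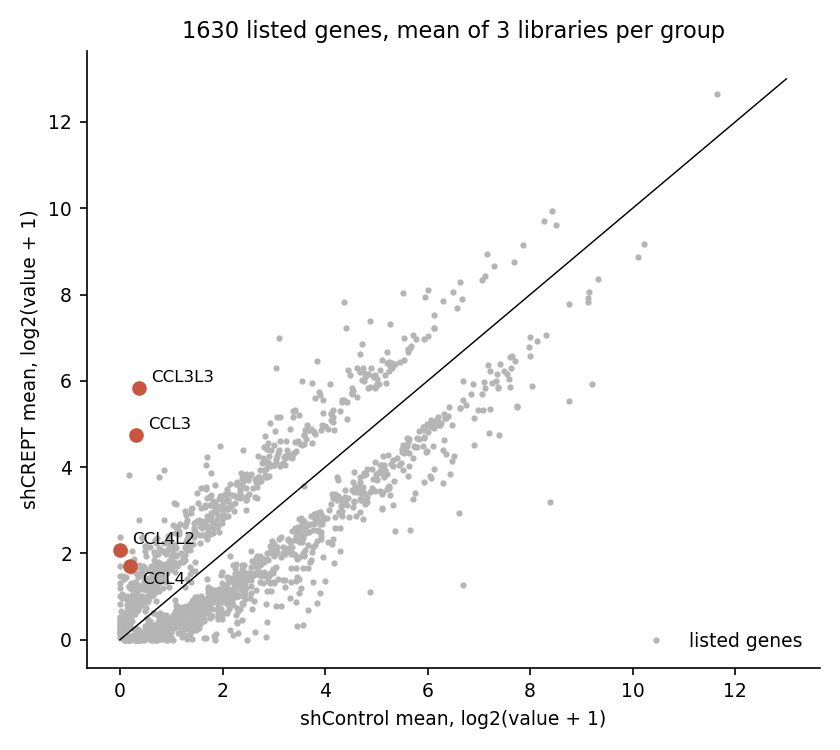
Mean log2(value + 1) over 3 libraries in shControl (x axis) and shCREPT (y axis) for the 1630 listed genes (grey), with CCL3, CCL3L3, CCL4 and CCL4L2 in red; the line marks equal means. CCL3 and CCL3L3 stand at the left edge, above the other listed genes at that edge, and CCL4 and CCL4L2 lie at low levels among those genes.

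The profiles closest to those of the 3 genes were found by the Euclidean distance between log2(value + 1) over the 6 libraries, as a description. CCL3L3 was nearest to CCL3 (distance 1.95), ahead of UCA1 (3.47) and the pseudogene PVRIG2P (3.65). For CCL3 the nearest were PVRIG2P (1.77), the long noncoding RNA UCA1 (1.79) and ENSG00000250509 (1.89), and CCL3L3, at a higher level, followed (1.95). PVRIG2P had values of 0, 0 and 0.41 in shControl and 11.16, 12.82 and 15.23 in shCREPT. UCA1 had 1.13, 0.5 and 0.82 in shControl and 13.7, 17.58 and 11.87 in shCREPT. Both resembled CCL3 in being near 0 in 1 group and moderate in the other. For CCL4 the nearest were FABP6, a bile acid binding protein (0.19), ZBP1, a sensor of nucleic acid (0.45), and CRLF2, a cytokine receptor chain (0.57). A value under 1 in every shControl library and of at least 5 in every shCREPT library was met by 4 listed genes, namely CCL3, CCL3L3, PVRIG2P and ENSG00000250509. That rule was chosen after the values were seen.

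Since CCL3 and CCL3L3 had like profiles, the 250 bases before their starts are shown, from RefSeq (GRCh38.p14). The CCL3 window lies at chr17:36090144-36090393 and that of CCL3L3 at chr17:36196759-36197008, both on the minus strand and written 5′ to 3′ towards the gene. The GENCODE v29 start of CCL3, 36090169, falls inside its window, so the 2 sources place that start differently. Motif distances below are counted from the RefSeq starts. CCL4 and CCL4L2 had no entry in that table. Capitals mark motif matches.
CCL3: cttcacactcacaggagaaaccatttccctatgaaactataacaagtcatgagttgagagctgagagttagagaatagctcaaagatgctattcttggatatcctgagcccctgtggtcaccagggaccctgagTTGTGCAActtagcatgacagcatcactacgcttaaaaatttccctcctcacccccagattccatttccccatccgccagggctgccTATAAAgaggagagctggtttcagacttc
CCL3L3: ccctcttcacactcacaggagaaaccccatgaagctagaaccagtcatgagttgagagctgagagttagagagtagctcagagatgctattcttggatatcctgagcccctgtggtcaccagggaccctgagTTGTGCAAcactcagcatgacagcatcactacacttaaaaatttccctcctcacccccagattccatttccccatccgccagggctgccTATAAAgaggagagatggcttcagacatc
The stretches were identical in 233 of 256 aligned positions (91.0%), with 11 mismatches and 12 gap positions. Each held a TATA box (TATAAA) 29 to 24 bases before the start. A match to the C/EBP motif (TTGCNNAA) on the opposite strand lay 116 to 109 bases before the start of CCL3 and 118 to 111 before that of CCL3L3. The motifs searched on both strands besides these were AP-1 (TGANTCA), CRE (TGACGTCA) and the NF-kappaB consensus, and these letters were not in either window. No marked match overlapped another. Of 35116 windows of the same length in the table, 10.7% held the TATA box, 9.05% the C/EBP motif, 6.57% the AP-1 motif, 1.65% the CRE and 9.96% the NF-kappaB consensus.

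The other listed genes near the 4 chemokines were next examined. Within 1000 kb of the CCL3 start, 12 of 111 annotated genes have a row, and 11 of these are marked up in the authors' deposited table, where 40.3% of all listed genes are. The 4 chemokines account for 4 of the 11. Outside them, 7 of 8 are up, by far less than CCL3. AATF, a chromatin-associated factor 858.7 kb away, had means of 54.1 and 124 in shControl and shCREPT, and MYO19, a mitochondrial myosin, 50.3 and 112. MRM1, which methylates mitochondrial ribosomal RNA, had means of 2.64 and 7.77, and the homeobox gene LHX1 2.05 and 5.29. The long noncoding RNAs SNHG30 and LHX1-DT had ratios of 2.03 and 1.99. These 6 had log2 changes of 0.84 to 1.27 and were called by limma, as were 97.9% of all tested genes, so their calls say nothing particular of the neighbourhood. TBC1D3I, a member of a multicopy family whose reads may be shared, starts 174.4 kb from CCL3 and was too low to be tested, at 0.35, 0 and 0.34 in shControl and 1.47, 0.88 and 0.51 in shCREPT. The pseudogene ENSG00000261499 is the 1 row marked down.

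**Figure D4:**
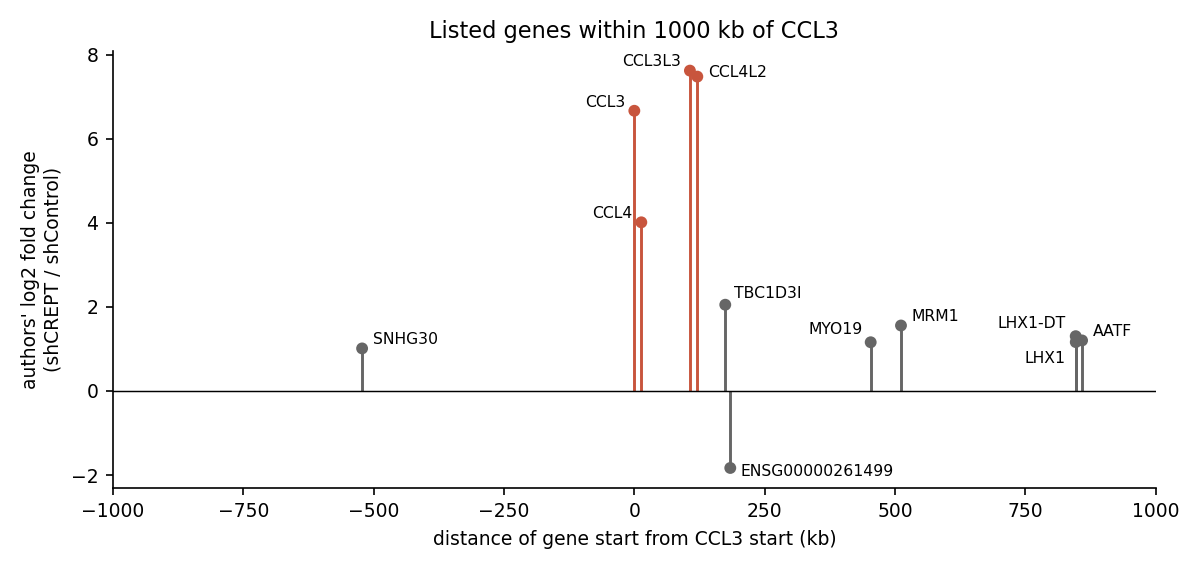
Log2 fold change (shCREPT over shControl) in the authors' deposited table for the 12 listed genes that start within 1000 kb of the CCL3 start, against distance in kb; the 4 chemokines are red and other genes grey. The chemokines reach 4.01 to 7.62, and the other up genes reach at most 2.05.

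Of 28 CC chemokine ligands looked up, 4 have a row, which are the 4 described, and the other 24, among them CCL2, CCL5 and CCL20, have none. None of 14 CC chemokine receptors has a row. Of 19 ligands of the CXC, CX3C and XC classes, 5 have a row, 3 with a higher and 2 with a lower shCREPT level and a median log2 change of 0.82. All were called by limma with Benjamini-Hochberg adjustment, as were 97.9% of all tested genes, so the calls say nothing particular of these ligands. CXCL9 was at 1.55, 2.14 and 2.7 in shControl and 0.56, 0.52 and 0.63 in shCREPT, so it passed the filter on low values through shControl alone and had to differ. CX3CL1, the membrane-bound ligand of CX3CR1, rose from 23.7 to 77.2 on average. The neutrophil attractant CXCL8 rose 2.08-fold and CXCL16, the ligand of CXCR6, 2.09-fold. CXCL10, like CXCL9 an interferon-induced ligand of CXCR3, was 2.12-fold lower. Median-of-ratios rescaling, which lifts shCREPT values, left CXCL10 lower by a log2 change of −0.20 that no longer passed (limma adjusted p = 0.107). That rescaling takes most genes as unchanged, whereas each listed gene was selected for a difference. A call lost under it, here or below, therefore does not show that a gene is unchanged.

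**Figure D5:**
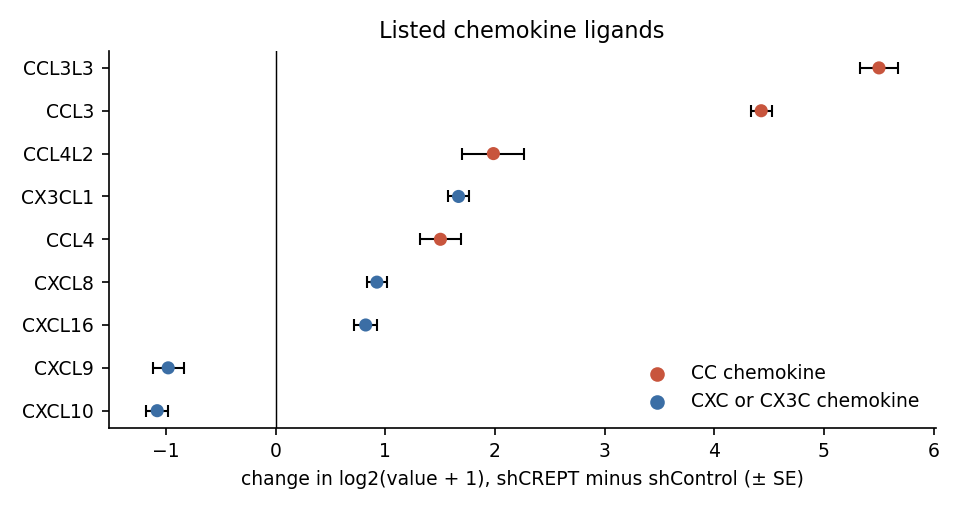
Change in log2(value + 1), shCREPT minus shControl, with its SE from the limma fit (3 libraries a group), for the 9 chemokine ligands with a row; red marks CC chemokines and blue CXC and CX3C chemokines. CCL3L3 and CCL3 lie at 5.50 and 4.43, and the other 7 lie between −1.08 and 1.99.

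Genes known to act upstream of CC chemokines gave few rows. None of 22 NF-kappaB factors and inhibitors and none of 15 feedback genes of the MAP kinase pathway has a row. Of the AP-1 factors, FOSL1 rose from 25.9 to 77.5 and BATF2 had means of 0.53 and 2.25. Of 14 calcineurin and NFAT genes, 3 have a row. RCAN1, which binds and regulates calcineurin, fell from 588 to 60.2, the calcineurin catalytic subunit PPP3CA fell from 22.8 to 10.9, and the transcription factor NFATC2 had means of 0.167 and 1.27 (median −1.01). BATF2 and NFATC2 passed the filter through shCREPT alone and had to differ. PPP3CA kept its direction and lost its call under median-of-ratios rescaling (log2 change −0.18, limma adjusted p = 0.0799).

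Of 18 cytokines that induce or accompany CC chemokines, 5 have a row and 3 were tested and called (against 97.9% of all tested genes), 1 higher and 2 lower (median log2 change −1.02). IL11, of the IL6 family, rose 11.4-fold to 225. IFNB1, the type I interferon, had values of 189.8, 192.11 and 173.94 in shControl and 68.95, 69.87 and 74.28 in shCREPT, a level 2.61-fold lower. CSF1, the macrophage growth factor, was 2.04-fold lower and lost its call under median-of-ratios rescaling (log2 change −0.14, limma adjusted p = 0.167). CSF2, which encodes GM-CSF, was too low to be tested, at 0, 0 and 0.11 in shControl and 0.97, 2.53 and 1.81 in shCREPT, in the range of CCL4. IL33 was also untested, at 0.14, 0.12 and 0.32 in shControl and 0.03, 0 and 0 in shCREPT. TNF, IL1A, IL1B and IL6 have no row.

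Chemokines are held at the cell surface and in the matrix by proteoglycans. Of 19 that were looked up, 5 have a row, 1 higher and 4 lower (median log2 change −1.17, against −0.76 over all tested genes). All 5 were called, beside 97.9% of all tested genes, of which 57.3% were lower. The cell surface syndecan SDC4 rose from 78.2 to 229. Biglycan (BGN) fell from 102 to 1.42, perlecan (HSPG2) from 4.38 to 1.09 and the glypican GPC4 from 63.0 to 27.3. Versican (VCAN) fell from 253 to 128 and lost its call under median-of-ratios rescaling (log2 change −0.11, limma adjusted p = 0.333).

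Markers of the cells best known for making CCL3 and CCL4 gave few rows. Among 15 genes that mark macrophages, monocytes or microglia, such as PTPRC, CD14 and CSF1R, 0 have a row. Of 12 T and natural killer cell markers 1 has a row, KLRD1, at 0.21, 0.53 and 0.23 in shControl and 0.16, 0.04 and 0.03 in shCREPT. Of 10 mast cell and neutrophil markers 1 has a row, FCGR3B, at 0.12, 0.11 and 0.64 in shControl and 0 in each shCREPT library. Both were lower in shCREPT, but they lay near 0 and were untested, and only 40.3% of all listed genes are marked up in the authors' deposited table. A missing row does not show that a marker is absent, and a part of such cells in the result was not tested. Of 13 markers of glioblastoma cells of astrocytic type 5 have a row (GFAP, PDGFRA, S100B, CHI3L1 and SLC1A3), with sums of 552.6 to 587 in shControl and 82.01 to 98.31 in shCREPT. Most of each shControl sum was GFAP, at 421.04 to 447.81, against 43.12 to 49.81 in shCREPT. SLC1A3 was 2.15-fold lower and lost its call under median-of-ratios rescaling (log2 change −0.24, limma adjusted p = 0.207). Of 11 genes looked up for RNA quality and stress 1 has a row, the mitochondrial ribosomal RNA MT-RNR1. MT-RNR1 had values of 3038.14 to 3497.15 in shControl and 5918.53 to 6891.8 in shCREPT. The part of these markers and of MT-RNR1 in the chemokine values was not tested. In bulk RNA, a few cells with much CCL3 and many cells with little cannot be told apart.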

How the data were processed

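Total RNA of 6 libraries was sequenced; per the labels' protocols, libraries were made with a NEBNext Ultra kit, and the submitters' processing notes name HISAT2, HTSeq and GRCh38 with no role or version. The deposited table gives a normalized signal per gene and library; the method of normalization is not given by the sources used here. Per the file headers, further columns hold the authors' ratio of the groups, the log2 fold change, and p-values before and after adjustment. No whole reads were recovered from the values and no count test was run.

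Values were transformed as log2(value + 1). A gene entered with 1 or more in 3 or more libraries (1184 of 1630), and shCREPT was set against shControl in limma 3.58.1 (R 4.3.3) with no covariate, Benjamini-Hochberg adjustment over all tested genes and a threshold of 0.05. The step was tested on simulated data. The design assumed a table of all genes and was kept as written. The 3 genes and all lists were chosen with earlier results of these data known; 9 gene lists and 5 marker lists were used. Named were the listed CC ligands, up to 4 tested members of each other list by absolute change with any untested member, the listed markers, the listed genes within 1000 kb of CCL3, and the 3 nearest profiles. CXCL9 and CXCL16 complete the chemokine list, and VCAN and GPC4 the proteoglycan list, so all 5 of each are given. Between any pair of libraries 96.0% of values or more differed, and no library was taken for a repeat of another. Alternatives were other pseudocounts, filters and scalings, trend and robust options in limma, a block for the replicate number, and each library left out. Positions and transcripts came from GENCODE v29, promoters from RefSeq. Some items are not reported here. Sequences were aligned with Biopython 1.88. Python 3.11.15, numpy 2.4.6, pandas 2.3.3, scipy 1.17.1 and matplotlib 3.10.9 were used.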

Additional observations from a re-analysis of the deposited data

How the results depend on the processing

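CCL3, CCL3L3 and CCL4 were higher in shCREPT under every alternative that gave a value; a minimum of 10 in 3 libraries left CCL4 out. The size depended on the scale. A pseudocount of 0.1 gave log2 changes of 6.31 for CCL3, 7.60 for CCL3L3 and 3.44 for CCL4, and a pseudocount of 5 gave 2.55, 3.54 and 0.50, by construction of the scale. Median-of-ratios rescaling, which lifts shCREPT relative to shControl by 0.88 (log2), gave 4.93, 6.01 and 1.86, and quantile normalization gave 4.61 for CCL3. Without 1 library in turn the values were 4.35 to 4.47 for CCL3, 5.33 to 5.68 for CCL3L3 and 1.30 to 1.61 for CCL4. The low library values and the unknown depth limit the shControl side of each ratio.

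In shCREPT, leaving out a library gave shares of 29.7 to 31.4% for CCL3, 65.5 to 67.5% for CCL3L3 and 2.14 to 3.03% for CCL4, and a ratio of CCL3L3 to CCL3 of 2.08 to 2.27. In shControl it gave 34.4 to 71.4%, 17.1 to 43.0% and 11.2 to 22.7%, so the makeup there rests on single libraries, above all library 3, where CCL3L3 and CCL4 are listed at 0. Adding CCL4L2 to the sum, chosen after the data were seen, gave CCL3L3 64.4% in shCREPT.

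Of the genes tested, 1159 passed (481 higher, 678 lower). The stricter filter left 487 to test and 485 passed, and median-of-ratios rescaling turned the majority (523 higher, 346 lower). Its factors came from 1447 listed genes, each selected for a difference, though the method takes most genes as unchanged. The majority under it is therefore not informative on direction. Leaving out a library gave 1137 to 1152 genes past the threshold. Deviations from the group means correlated by −0.109, 0.018 and −0.179 between libraries of 1 number. The labels give no pairing beyond that number, and such correlations, from 3 libraries a group, cannot exclude a shared batch. With the replicate block 1156 genes passed, with the log2 changes of CCL3, CCL3L3 and CCL4 as before. Quantile normalization set MT-RNR1 to no change, since it ranks first in each library.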
